A study of Mus musculus with 30 samples.

Results

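The genes described here encode the core of the NRF2 pathway, which raises antioxidant and detoxification genes. They are 8 of the 29861 genes of the deposited table, chosen by name: Nfe2l2, which encodes NRF2 itself, its partners Mafg, Maff and Mafk, its competitor Bach1, the ligase subunits Keap1 and Cul3, and Nfe2l1, which encodes the related factor NRF1. Each was found once in the table by its Ensembl identifier, and all 8 passed the filter on low values. RNA was measured in CCG-HTA-1, a primary line of tail fibroblasts from UMHet3 mice, a stock of mixed genetic background.

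All groups shared the same line at passage 4, high-glucose DMEM lacking pyruvate, ambient oxygen and 10% CO2. A compound or the solvent DMSO was added 24 hours after plating, and RNA was taken 48 hours later. The labels give the donor age as 5 to 8 weeks, except for Dihydrorotenone replicate 1, where they give 8 to 11 weeks. Doses are not given in the labels.

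Each of 8 compounds had 3 libraries and DMSO had 6, or 30 in all, although the series text speaks of 5 DMSO replicates. Antimycin A and Dihydrorotenone inhibit the mitochondrial respiratory chain. Diphenyleneiodonium Cl inhibits flavin-containing enzymes, Cardamonin is a plant chalcone, Clofilium tosylate blocks potassium channels and Podofilox blocks tubulin polymerisation. BerberineA and AEG 3482 are named here as the labels name them. The libraries come from 1 cell line and not from separate animals, so p-values measure only the spread between libraries, which may be technical. Library numbers run consecutively within each group, so a treatment and a library batch cannot be told apart.

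NRF2 is a basic leucine zipper factor of the cap'n'collar family. In unstressed cells KEAP1 binds it and presents it to the CUL3 ubiquitin ligase, so that NRF2 protein turns over quickly. When KEAP1 is modified by electrophiles or oxidants, NRF2 builds up, pairs with a small Maf protein (MAFG, MAFF or MAFK) and binds antioxidant response elements. BACH1 pairs with the same small Mafs and represses many of the same elements. Small Mafs have no transactivation domain, so their own pairs can also occupy the sites. NRF1 is a membrane-anchored relative that is cut and released, and is known for raising proteasome genes. Much of this control acts on protein, which these RNA measurements do not show.

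The members are protein-coding genes on 7 chromosomes, positioned here by GENCODE M21 on GRCm38. Nfe2l2 (ENSMUSG00000015839) lies on the minus strand of chr2:75675513-75704641, and Nfe2l1 (ENSMUSG00000038615) lies on the minus strand of chr11:96817414-96829968. Keap1 (ENSMUSG00000003308) lies on the minus strand of chr9:21229730-21239361, and Cul3 (ENSMUSG00000004364) lies on the minus strand of chr1:80264923-80340480. Mafg (ENSMUSG00000051510) lies on the minus strand of chr11:120625117-120633600, and Maff (ENSMUSG00000042622) lies on the plus strand of chr15:79346621-79359076. Mafk (ENSMUSG00000018143) lies on the plus strand of chr5:139791513-139802653, and Bach1 (ENSMUSG00000025612) lies on the plus strand of chr16:87698945-87733346. Mafg and Nfe2l1 share a chromosome but lie far apart on it. TPM here covers whole genes, so exons, introns and alternative transcripts were not told apart.

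The promoter windows of the members were searched for the core of the antioxidant response element, because several of these genes rose together in some groups. The windows are RefSeq sequences of GRCm38.p6 that run from 250 bases before to 50 bases after each annotated start, and the 8 members have 14 of them. On both strands, TGACNNNGC and TGAGNNNGC were searched, and also the palindromic Maf recognition element (T-MARE), which can overlap the other 2 motifs when its middle base is C or G. Each matched site is given in the direction of its gene, with the motif in capitals and 10 bases on either side.

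Nfe2l2, TGACNNNGC, minus strand of chr2:75704885-75704913: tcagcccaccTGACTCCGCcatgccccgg
Mafg, TGACNNNGC read on the other strand, minus strand of chr11:120633751-120633779: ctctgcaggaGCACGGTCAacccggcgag
Maff, TGACNNNGC, plus strand of chr15:79346499-79346527: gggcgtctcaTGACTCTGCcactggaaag
Maff, TGAGNNNGC, plus strand of chr15:79346524-79346552: aaagacagtgTGAGAAGGCcaaccccact
Mafk, TGACNNNGC read on the other strand, plus strand of chr5:139791513-139791541: gatcccggaaGCGGTGTCAgtactgggga
Nfe2l1, TGAGNNNGC read on the other strand, minus strand of chr11:96830129-96830157: gggcgggcctGCACACTCAttggacttct
Nfe2l1, TGAGNNNGC read on the other strand, minus strand of chr11:96824120-96824148: ttggttctctGCAGCCTCAgcagtgacct

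All 3 small Maf genes and Nfe2l2 had a TGACNNNGC match, and Nfe2l1 had TGAGNNNGC matches only. The Maff matches lie in 1 of its windows, and its other windows held neither motif. The second Nfe2l1 site lies in the windows of 3 alternative starts. The windows of Keap1, Bach1 and Cul3 held neither motif, which says only that these letters are not in these windows. Of 32851 RefSeq promoter windows of the same length, 12.4% held TGACNNNGC, 17.6% held TGAGNNNGC and 27.8% held at least 1 of them. These shares are per window, and a gene with several windows, such as Maff or Nfe2l1, has more places for a match. The full palindrome was in 2 of all windows and in none of the members'. A match is a description of sequence and not a measured binding site.

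The deposited values are TPM, a relative transcript abundance, which are scaled by transcript length and to each library's total, so that levels can be compared between genes. The number of genes at 1 TPM or more was 12229 to 12700. Sequencing depth is unknown, since TPM does not keep it. The fibroblast markers fixed for the check were present, with 10 of 10 at 10 TPM or more in every library. Their summed level was 14046 to 16830 TPM in DMSO, 14691 to 16807 in AEG 3482 and 6163 to 8029 in Cardamonin. Antimycin A (10678 to 11990), Clofilium tosylate (12281 to 13117) and BerberineA (12688 to 14006) also lay below every DMSO library. So did Podofilox (13073 to 13933) and Diphenyleneiodonium Cl (13214 to 13902), while Dihydrorotenone (12446 to 14390) overlapped DMSO. Markers of other cell types were low. The keratinocyte list summed to 1.05 to 2.41 TPM over all libraries, with Krt10 at 1.02 to 2.38 and Krt5 at 0. The muscle list summed to 0.0809 to 0.821, with Des at 0.0809 to 0.786 and Myod1 at 0, and the adipocyte list to 0 to 0.199 with Plin1 at 0. The leukocyte list summed to 12.4 to 16.0 TPM in DMSO and was lower in every compound, at 2.98 to 3.56 in Cardamonin, 3.69 to 4.60 in Antimycin A, 3.83 to 4.92 in AEG 3482 and 6.27 to 10.5 over the other 5. The endothelial list summed to 5.42 to 8.71 in DMSO, 1.09 to 1.18 in Cardamonin and 1.63 to 1.77 in AEG 3482. The melanocyte and Schwann list reached 16.4 to 18.7 TPM in Antimycin A against 5.44 to 7.31 in DMSO. The part of these shifts in the results below was not tested, and in bulk RNA fewer cells of a type and less RNA per cell cannot be told apart.

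In DMSO all 8 genes were expressed at or above the middle of the 13644 tested genes. Nfe2l1 was the most abundant member, with a mean level of 189 TPM, above 94.99% of tested genes. Nfe2l2 followed at 139.8 TPM, above 93.1% of them. The ligase scaffold Cul3 stood at 94.1 TPM and its adaptor Keap1 at 38.9. Among the small Mafs, Mafg stood at 72.5 TPM, Maff at 21.5 and Mafk at 20.4, above 56.5% of tested genes. Bach1 had 28.2 TPM, so Nfe2l2 RNA exceeded Bach1 RNA 4.97-fold ± 0.253 (SD, n = 6).

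**Figure D1:**
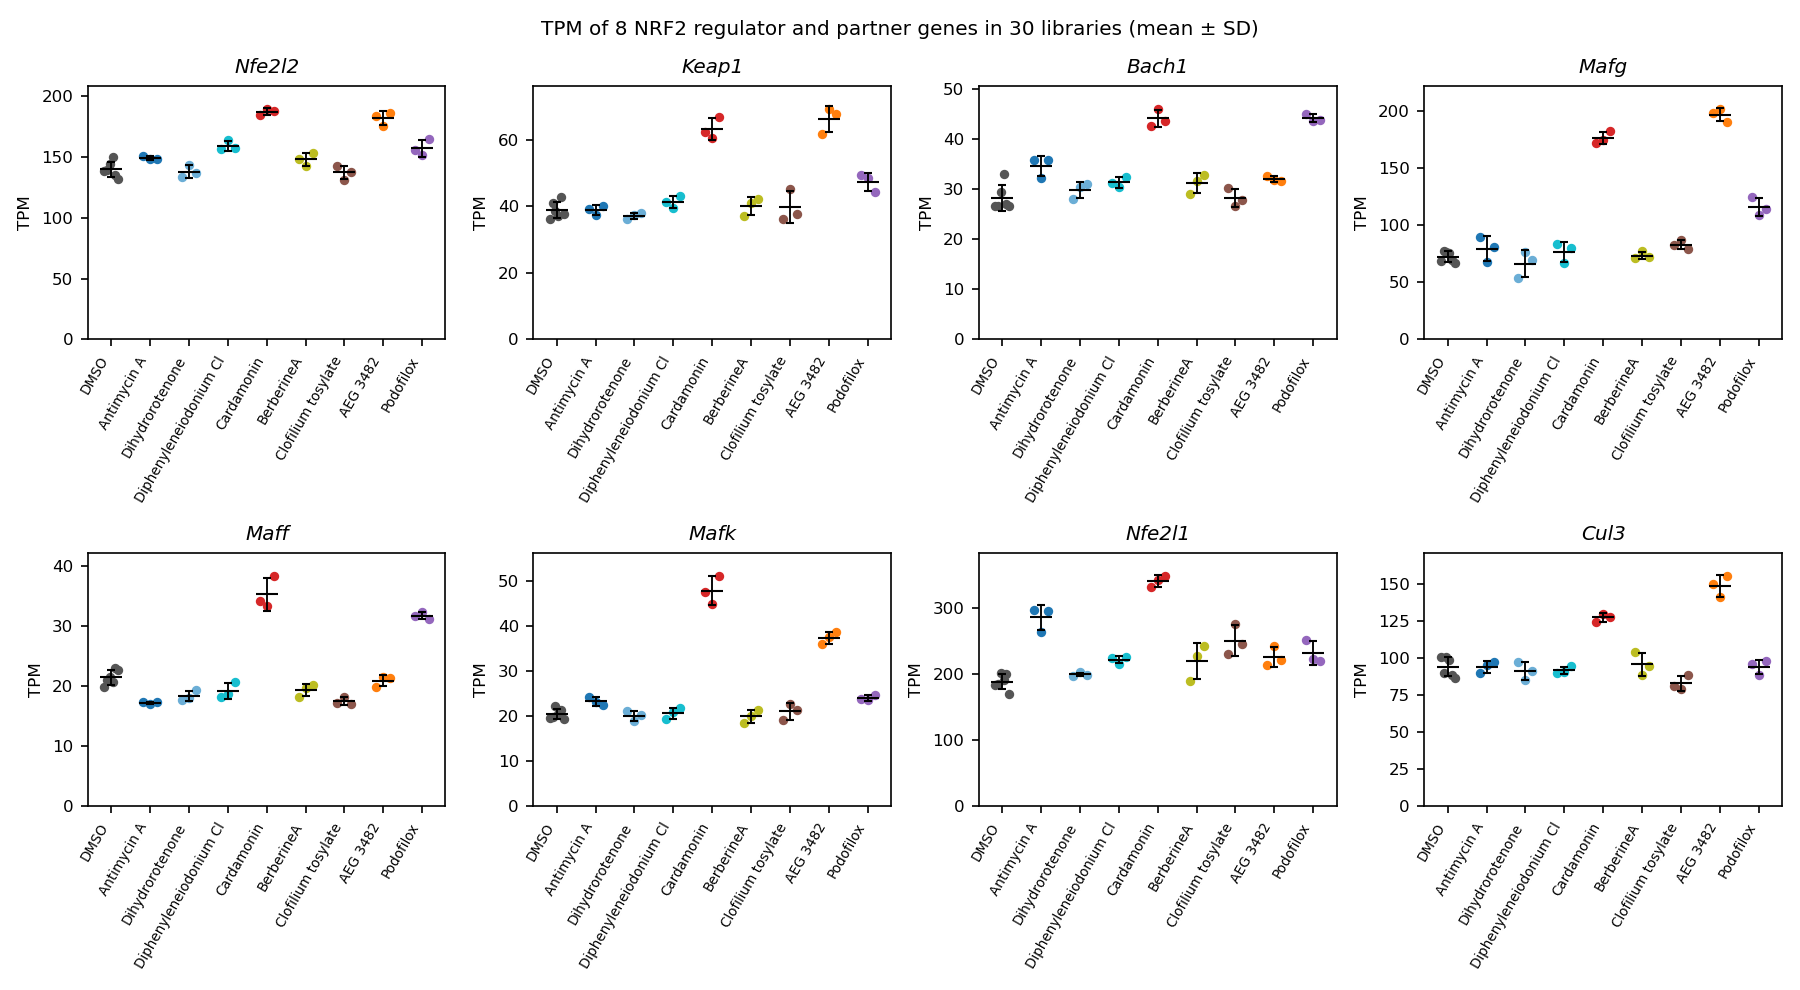
TPM of each of the 8 genes in every library, by group, with points for libraries, a horizontal line for the group mean and whiskers for 1 SD. Cardamonin libraries lie above all DMSO libraries in every panel, and Maff in AEG 3482 lies among the DMSO libraries.

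Cardamonin, AEG 3482 and Podofilox moved most of these genes, in subsets that were not the same. Differences are given on the log2(TPM + 1) scale from limma fitted over all tested genes, with adjusted p by Benjamini-Hochberg over those genes and a threshold of 0.05. Cardamonin raised 8 of 8 members, where 70.3% of all tested genes were called, 37.3% higher and 33.0% lower. AEG 3482 raised 7 and lowered none, against 68.1% of all genes called, 41.3% higher and 26.8% lower. Podofilox likewise raised 7 and lowered none, against 46.2% called, 26.2% of all genes higher and the rest lower. The median difference from DMSO over the 8 members was 0.69 in Cardamonin, 0.52 in AEG 3482 and 0.29 in Podofilox, and over all tested genes it was 0.03, 0.10 and 0.04. These comparisons share the 6 DMSO libraries.

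The other 5 compounds called fewer members. Antimycin A raised 3 and lowered 1, where 37.3% of all genes were called, 21.8% higher and 15.5% lower. Diphenyleneiodonium Cl raised 2 and lowered 1, against 25.7% of all genes called, 14.0% higher and 11.7% lower. Clofilium tosylate raised 1 and lowered 2, against 23.4% called, 10.9% higher and 12.5% lower. BerberineA raised 1 and lowered none, against 21.7% called, 12.6% higher and 9.16% lower. Dihydrorotenone raised none and lowered 1, against 14.4% called, 4.95% higher and 9.43% lower. The member medians in these 5 groups lay between -0.03 and 0.11. The single calls in BerberineA and Dihydrorotenone did not hold in every setting: each was lost with only the 2 groups in the fit, and the counts of members ranged from 0 to 3 and from 0 to 1 when single libraries were left out.

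**Figure D2:**
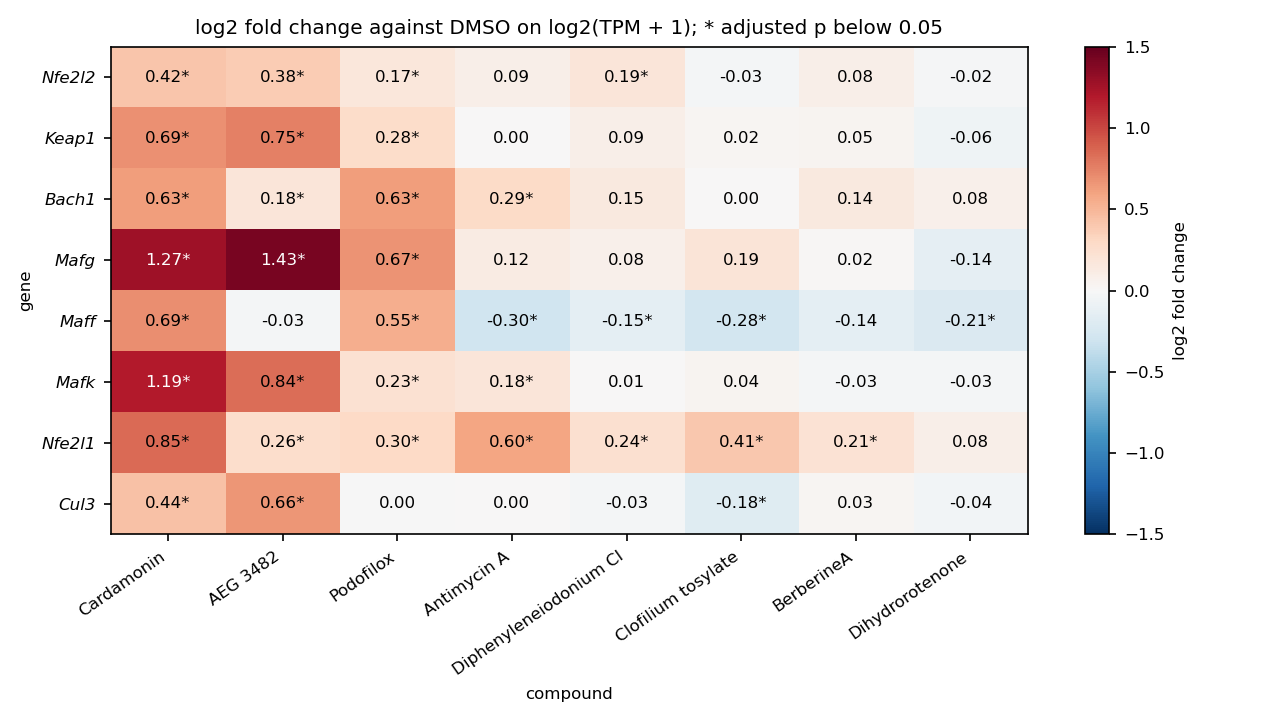
Log2 difference from DMSO, on the log2(TPM + 1) scale, of the 8 genes (rows) in the 8 compounds (columns), with values printed in the cells and a mark for adjusted p below 0.05. Mafg has the largest values, 1.43 in AEG 3482 and 1.27 in Cardamonin, and Maff has 4 marked negative values.

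Nfe2l2 RNA changed little in size but reproducibly. DMSO libraries ranged from 132 to 149.7 TPM with a median of 139. Cardamonin libraries held 184, 189 and 188 TPM, and AEG 3482 libraries held 183, 175 and 186. No library of either compound overlapped DMSO, and the differences were 0.42 ± 0.04 (SE, adjusted p = 4.22e-10) in Cardamonin and 0.38 ± 0.04 (adjusted p = 4.23e-09) in AEG 3482. On the linear TPM scale these are 1.34-fold and 1.30-fold levels. Diphenyleneiodonium Cl, at 156, 164 and 157 TPM, and Podofilox, at 156, 151 and 165, also lay above every DMSO library, by 0.19 (adjusted p = 6.78e-04) and 0.17 (adjusted p = 8.40e-04). Antimycin A, with 151, 148 and 148 TPM, differed by 0.09 with an adjusted p of 0.0608 (0.0499 without DMSO replicate 3 and 0.0186 without DMSO replicate 4), and libraries of the other 3 compounds ranged from 131 to 153. In the order of group means, AEG 3482 stood above the next group, Diphenyleneiodonium Cl, by 0.19 (adjusted p = 6.76e-04, with 64.3% of all genes called in that contrast). No other neighbouring pair passed, and this one was lost under quantile normalization (0.08, adjusted p = 0.121).

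Keap1, the substrate adaptor that holds NRF2 for degradation, rose more than Nfe2l2 in both of the strongest groups. In DMSO its level ran from 36.2 to 42.9 TPM with a median of 38.1. Cardamonin libraries had 62.2, 60.6 and 66.9 TPM and AEG 3482 libraries 61.7, 69.2 and 67.8, all well above DMSO. The differences were 0.69 ± 0.06 (adjusted p = 2.90e-10) and 0.75 ± 0.06 (adjusted p = 7.51e-11). Podofilox libraries had 49.3, 48.4 and 44.3 TPM, also outside the DMSO range, a rise of 0.28 ± 0.06 (adjusted p = 6.82e-04). Libraries of the other 5 compounds lay between 36.2 and 45.1 TPM and none of those groups passed. Cardamonin stood above Podofilox by 0.41 (adjusted p = 2.41e-05, with 57.8% of all genes called). Podofilox stood above Diphenyleneiodonium Cl by 0.19 (adjusted p = 0.0342, with 42.7% called), a call lost without replicate 1 or 2 of either compound (adjusted p from 0.0730 to 0.125) and without the filter on low values (0.0521). About 10.9% of the exon bases of Keap1 are shared with Gm16754, an antisense gene, and reads of the 2 cannot be told apart without strand.

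Since Keap1 rose further than Nfe2l2, the RNA ratio of the pair was lower in these groups. The TPM of Nfe2l2 over that of Keap1 was 3.61 ± 0.316 (SD, n = 6) in DMSO. It was 2.96 ± 0.155 (SD, n = 3) in Cardamonin and 2.75 ± 0.221 (SD, n = 3) in AEG 3482. Every library of these 2 groups was below every DMSO library, whose lowest value was 3.16. Ratios of this kind were not tested.

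Cul3, the cullin scaffold on which KEAP1 works, rose in the same 2 compounds and not in Podofilox. In DMSO its level ran from 86.4 to 101 TPM with a median of 94.2. AEG 3482 libraries held 149.96, 141 and 156 TPM and Cardamonin libraries 124, 130.1 and 128, all above DMSO. The differences were 0.66 ± 0.06 (adjusted p = 1.98e-10) and 0.44 ± 0.06 (adjusted p = 2.13e-07). Podofilox, with 95.7, 88.5 and 97.7 TPM, lay within the DMSO range, at 0.00 with a 95% interval of -0.12 to 0.12. Clofilium tosylate, with 81.2, 79.1 and 88.3 TPM, had the lowest levels and fell by 0.18 (adjusted p = 0.0231). That call was lost in a fit of the 2 groups alone (adjusted p = 0.0787) and without Clofilium tosylate replicate 1 (0.0858) or replicate 2 (0.138) or DMSO replicate 3 (0.0509). Between neighbours in level, Cardamonin stood above BerberineA by 0.41 (adjusted p = 6.19e-06, with 65.5% of all genes called), and no pair below that passed.

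Bach1, the repressor that competes for small Mafs, was highest in Podofilox and Cardamonin and moved little in AEG 3482. DMSO libraries ranged from 26.5 to 33.0 TPM with a median of 26.9. Podofilox libraries held 45.1, 43.6 and 43.8 TPM and Cardamonin libraries 42.7, 46.0 and 43.7, with no overlap with DMSO. The differences were equal at this precision, 0.63 ± 0.06 in both (adjusted p = 2.51e-09 and 5.54e-10). Antimycin A, with 35.8, 32.3 and 35.8 TPM, overlapped the highest DMSO library and was higher by 0.29 ± 0.06 (adjusted p = 3.36e-04). Cardamonin stood above Antimycin A, its neighbour in level, by 0.34 (adjusted p = 1.06e-04, with 64.2% of all genes called). Diphenyleneiodonium Cl, with 31.2, 30.4 and 32.4 TPM, differed from DMSO by 0.15 (adjusted p = 0.0638). Bach1 there passed with the replicate block (0.0269), under median-ratio scaling (0.0380) and without DMSO replicate 4 (0.00487). The block leaves only DMSO replicates 1, 2 and 3 as controls, because replicate numbers 4, 5 and 6 occur in no compound. BerberineA, with 29.1, 31.7 and 32.9 TPM, differed by 0.14 (adjusted p = 0.0863) and passed with the replicate block (0.0369), without BerberineA replicate 1 (0.0440) and without DMSO replicate 4 (0.00739).

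AEG 3482 libraries held 32.7, 31.9 and 31.6 TPM of Bach1, inside the DMSO range because of 1 DMSO library at 33.0. The difference of 0.18 (adjusted p = 0.00873) was lost under median-ratio scaling (0.08, adjusted p = 0.154), quantile normalization (0.03, 0.571) and without the 20 most abundant genes (0.11, 0.106). Against Podofilox, a contrast chosen after its values were seen, Bach1 in AEG 3482 was lower, with a difference of -0.45 (95% interval -0.59 to -0.31, adjusted p = 3.21e-06, with 60.3% of all genes called). The TPM of Nfe2l2 over that of Bach1 was 5.67 ± 0.209 (SD, n = 3) in AEG 3482, 4.97 ± 0.253 (SD, n = 6) in DMSO and 3.56 ± 0.176 (SD, n = 3) in Podofilox. None of these 3 groups overlapped another of the 3, the DMSO libraries lying between 4.53 and 5.22. Cardamonin, at 4.12 to 4.32, also lay below every DMSO library, and the remaining compounds overlapped DMSO.

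Mafg, the most abundant small Maf in every group, showed the largest rise of any member. Levels in the DMSO libraries ran from 67.2 to 77.1 TPM with a median of 72.6. AEG 3482 libraries held 198, 202 and 190.2 TPM, Cardamonin libraries 172, 175 and 182, and Podofilox libraries 124, 109 and 114. All 9 of these libraries were above every DMSO library. Mafg rose by 1.43 ± 0.09 (adjusted p = 1.85e-13) in AEG 3482, or 2.71-fold in TPM. In Cardamonin it rose by 1.27 ± 0.09 (adjusted p = 1.13e-12), or 2.43-fold. In Podofilox the rise was 0.67 ± 0.09 (adjusted p = 5.61e-07), or 1.60-fold. Cardamonin stood above Podofilox by 0.60 (adjusted p = 1.24e-05), and Podofilox above Clofilium tosylate by 0.48 (adjusted p = 4.35e-04, with 39.1% of all genes called).

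In Clofilium tosylate Mafg stood at 82.8, 87.2 and 78.9 TPM, above all DMSO libraries, yet its difference of 0.19 had an adjusted p of 0.115. It passed under median-ratio scaling (adjusted p = 0.0398) and in a fit of the 2 groups alone (0.0493). The widest spread for Mafg was in Dihydrorotenone, with 53.5, 76.2 and 69.2 TPM, where replicate 1 is the library whose age label differs. Mafg shares 1.68% of its 31-mers with transcripts of other genes and 2.21% of its exon bases with Sirt7 on the same strand, which reached at most 38.2 TPM.

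Mafk rose in 4 groups and most in Cardamonin. DMSO libraries ranged from 19.4 to 22.1 TPM with a median of 20.1. Cardamonin libraries held 47.5, 44.9 and 51.2 TPM, and AEG 3482 libraries held 35.9, 37.6 and 38.6, so that DMSO, AEG 3482 and Cardamonin formed 3 separate ranges. The differences from DMSO were 1.19 ± 0.06 (adjusted p = 1.21e-15) and 0.84 ± 0.06 (adjusted p = 2.23e-12). Podofilox, with 23.9, 23.5 and 24.7 TPM, was higher by 0.23 ± 0.06 (adjusted p = 0.00236), and AEG 3482 exceeded it by 0.62 (adjusted p = 1.53e-08). Antimycin A, with 24.2, 23.1 and 22.4 TPM, was higher by 0.18 (adjusted p = 0.0182). That call was lost without the 20 most abundant genes (adjusted p = 0.0556) and without Antimycin A replicate 1 (0.107). The exons of Mafk overlap those of Tmem184a on the opposite strand by 4.33%, a gene that reached at most 0.520 TPM.

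Maff was the only member called lower in more than 1 compound. In DMSO its level ran from 19.8 to 23.0 TPM with a median of 21.3. Cardamonin libraries held 34.3, 33.3 and 38.5 TPM and Podofilox libraries 31.6, 32.4 and 31.3, all above DMSO, with rises of 0.69 ± 0.05 (adjusted p = 1.02e-11) and 0.55 ± 0.05 (adjusted p = 4.36e-09). In AEG 3482, where the other small Mafs rose, Maff stood at 19.9, 21.5 and 21.4 TPM, inside the DMSO range. Its difference there was -0.03, with a 95% interval of -0.14 to 0.08 and an adjusted p of 0.594, and it was called lower under median-ratio scaling (-0.14, adjusted p = 0.0242) and quantile normalization (-0.16, 0.00576). Maff in Cardamonin exceeded Maff in Podofilox by 0.15 (adjusted p = 0.0430). That pair was lost in 8 of the settings tried, among them the removal of Cardamonin replicate 3 (0.09, adjusted p = 0.273) or of any 1 Podofilox library (adjusted p from 0.0549 to 0.106).

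On the lower side, Antimycin A libraries held 17.3, 17.1 and 17.3 TPM of Maff, a fall of 0.30 ± 0.05 on the log2 scale (adjusted p = 6.64e-05). Clofilium tosylate libraries held 17.1, 18.2 and 17.03 TPM, and Maff fell by 0.28 ± 0.05 (adjusted p = 2.95e-04). Both groups lay wholly below DMSO. Dihydrorotenone libraries held 17.8, 17.98 and 19.4 TPM, also below every DMSO library, and Maff fell by 0.21 (adjusted p = 0.00772). It was the member behind the single Dihydrorotenone call, which reached only 0.0613 with the 2 groups alone and 0.0543 without Dihydrorotenone replicate 1. In Diphenyleneiodonium Cl, with 18.2, 18.7 and 20.8 TPM, Maff overlapped DMSO and the fall of 0.15 (adjusted p = 0.0373) was lost with the replicate block (adjusted p = 0.138), with the 2 groups alone (0.119) and without any of 5 single libraries: replicates 1 (0.197) and 2 (0.146) of Diphenyleneiodonium Cl and DMSO replicates 3 (0.0527), 5 (0.0792) and 6 (0.0701). BerberineA, with 18.2, 19.8 and 20.1 TPM, differed by -0.14 with an adjusted p of 0.0583. Maff there was called lower under median-ratio scaling (adjusted p = 0.0206), quantile normalization (0.0120) and removal of the 20 most abundant genes (0.0214), and without DMSO replicate 1 (0.0294) or 4 (0.0493).

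The 3 small Maf genes together stood more than 2-fold above DMSO in 2 groups and differed in makeup from DMSO in both, more so in AEG 3482. Their summed level was 114 TPM ± 4.98 (SD, n = 6) in DMSO, 259.5 ± 10.8 (SD, n = 3) in Cardamonin, 255 ± 5.29 (SD, n = 3) in AEG 3482 and 172 ± 7.45 (SD, n = 3) in Podofilox. In DMSO, Mafg made up 63.3% ± 1.81 of the sum and Maff 18.8% ± 1.37 (SD, n = 6). In AEG 3482 Mafg made up 77.1% ± 1.01 and Maff 8.21% ± 0.352 (SD, n = 3). AEG 3482 libraries held Mafg shares of 76.0% to 78.0%, above the highest value in any other group, 69.6%. The Cardamonin sum was close to that of AEG 3482, but with Mafg at 68.0% ± 1.04 and Maff at 13.6% ± 0.493, also outside the DMSO ranges of 60.9% to 65.4% and 17.6% to 20.8%. Clofilium tosylate, with a sum of only 121 TPM, lay outside both ranges too, with Mafg at 67.2% to 69.6% and Maff at 14.2% to 14.5%. Podofilox lay above DMSO in the Mafg share (66.1% to 69.1%) and overlapped it in the Maff share (17.6% to 19.6%). The Mafk share was 13.3% to 14.5% in Podofilox and 14.1% to 15.4% in AEG 3482, below DMSO at 16.7% to 18.8%. In the Mafk share the other compounds overlapped DMSO. Antimycin A (13.2% to 15.8%) and Diphenyleneiodonium Cl (15.1% to 17.5%) lay below DMSO in the Maff share. Relative to Nfe2l2, the small Maf sum was 0.819 ± 0.0291 in DMSO, 1.39 ± 0.0554 in Cardamonin, 1.41 ± 0.0740 in AEG 3482 and 1.09 ± 0.0621 in Podofilox, with no overlap between DMSO and these groups. These sums and shares were not tested.

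**Figure D3:**
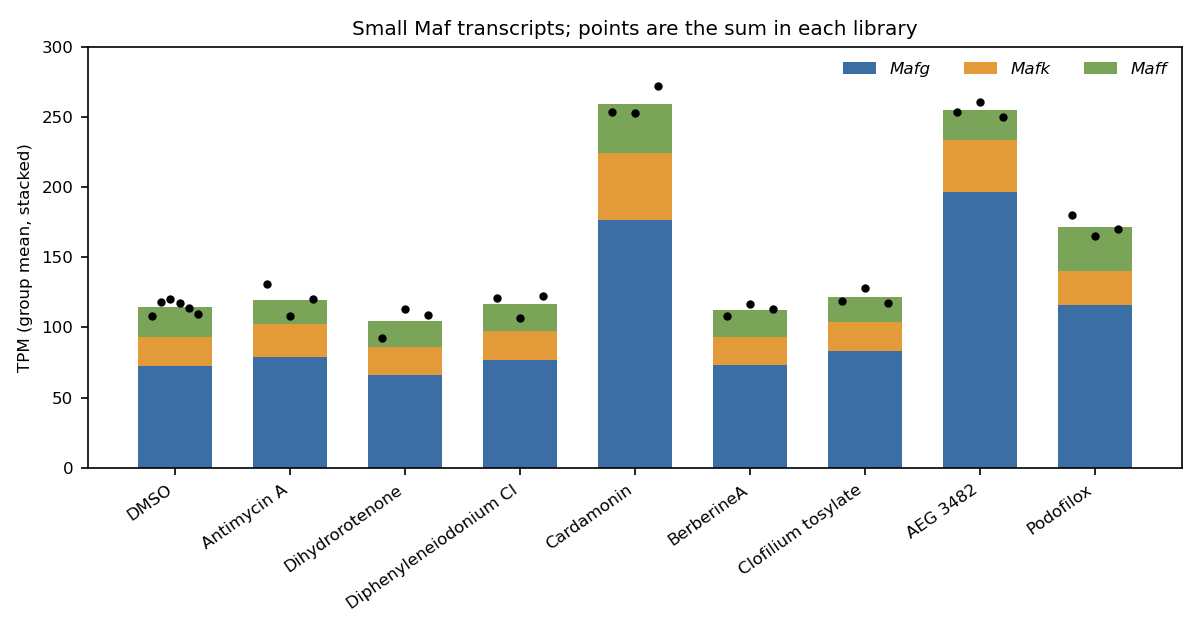
Makeup of the small Maf RNA in each group, with the mean TPM of Mafg, Maff and Mafk stacked and points for the sum in each library. The sums of Cardamonin and AEG 3482 are similar, 259.5 and 255 TPM, and the Maff part is smaller in AEG 3482.

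Nfe2l1, which encodes the proteasome regulator NRF1, had a pattern of its own among the members and rose in 7 of 8 compounds. DMSO libraries ranged from 171 to 203 TPM with a median of 188. Cardamonin libraries held 333, 343 and 350.0 TPM, a rise of 0.85 ± 0.07 (adjusted p = 2.22e-11). Antimycin A came next, with 298, 265 and 297 TPM and a rise of 0.60 ± 0.07 (adjusted p = 1.14e-07). All 6 libraries were above DMSO, and Cardamonin exceeded Antimycin A by 0.26 (adjusted p = 0.00587). Clofilium tosylate, with 231, 276 and 246 TPM, was higher than DMSO by 0.41 ± 0.07 (adjusted p = 7.08e-05). Podofilox, with 253, 223 and 221 TPM, was higher by 0.30 (adjusted p = 8.17e-04), and AEG 3482, with 214, 244 and 221, by 0.26 (adjusted p = 0.00154). All libraries of these 3 groups were above DMSO, and the AEG 3482 call was lost under quantile normalization (0.10, adjusted p = 0.169).

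The smallest rises of Nfe2l1 were in Diphenyleneiodonium Cl and BerberineA. Diphenyleneiodonium Cl libraries held 225, 216 and 226 TPM, above DMSO by 0.24 (adjusted p = 0.0112, and 0.0514 without its replicate 3). BerberineA libraries held 190.3, 227 and 243 TPM, and the lowest overlapped DMSO. The BerberineA difference of 0.21 (adjusted p = 0.0234) was lost with the replicate block (0.0781), with the 2 groups alone (0.0933) and without BerberineA replicate 2 (0.114), replicate 3 (0.223) or DMSO replicate 6 (0.0505). Dihydrorotenone, with 198, 203 and 199.5 TPM, did not pass (0.08, adjusted p = 0.459). Below Antimycin A no neighbouring pair of groups differed beyond the test. Antimycin A stood above AEG 3482 by 0.34 (95% interval 0.18 to 0.50, adjusted p = 5.23e-04, with 64.4% of all genes called), a contrast chosen after its values were seen. The TPM of Nfe2l1 over that of Nfe2l2 was 1.92 ± 0.113 (SD, n = 3) in Antimycin A, 1.84 ± 0.244 (SD, n = 3) in Clofilium tosylate and 1.83 ± 0.0298 (SD, n = 3) in Cardamonin. It was 1.35 ± 0.0772 (SD, n = 6) in DMSO and 1.25 ± 0.123 (SD, n = 3) in AEG 3482.

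Cardamonin and AEG 3482 were compared directly, because both raised most members. Between them 5 of 8 members differed, 4 higher and 1 lower in Cardamonin, where 55.3% of all tested genes differed. Maff differed most, at 0.73 (95% interval 0.60 to 0.85, adjusted p = 2.45e-10). Nfe2l1 was higher by 0.59 (0.43 to 0.76, adjusted p = 4.52e-07), Bach1 by 0.45 (0.31 to 0.59, adjusted p = 4.00e-06) and Mafk by 0.35 (0.21 to 0.49, adjusted p = 8.93e-05). The libraries of the 2 compounds did not overlap for any of these 4 genes. Cul3 was lower in Cardamonin, with a difference of -0.22 (-0.36 to -0.08, adjusted p = 0.00615), which did not pass under median-ratio scaling (-0.14, adjusted p = 0.110).

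The remaining 3 members gave no call between the 2 compounds. Nfe2l2 differed by 0.04 (-0.05 to 0.14, adjusted p = 0.431), although median-ratio scaling gave 0.13 with an adjusted p of 0.0151. Keap1 differed by -0.07 (-0.21 to 0.08, adjusted p = 0.468). Mafg differed by -0.16 (-0.36 to 0.05, adjusted p = 0.193), its libraries did not overlap between the compounds, and it passed in a fit of the 2 groups alone (adjusted p = 0.0149). Doses are not given, so these differences hold for the treatments as applied.

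**Figure D4:**
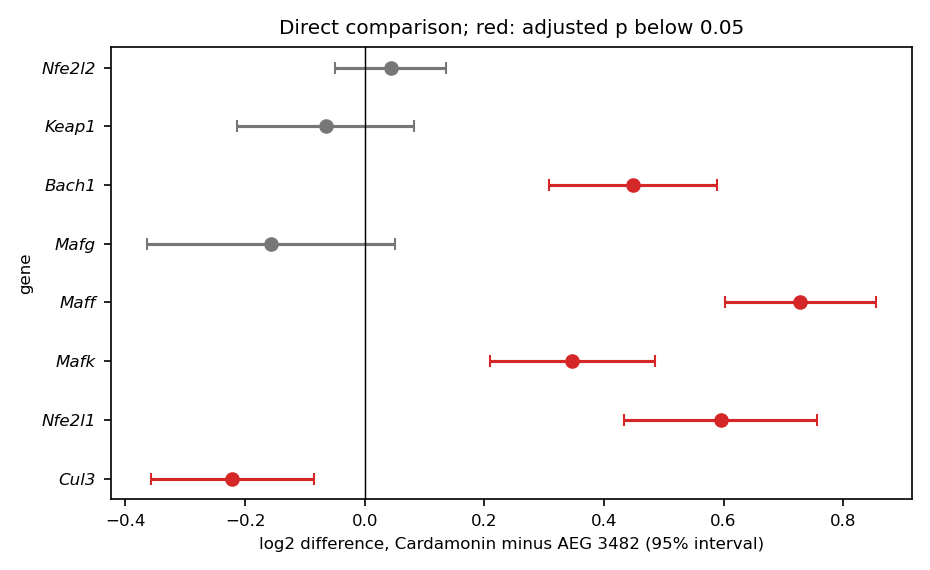
Cardamonin minus AEG 3482 for the 8 genes, as the log2 difference on the log2(TPM + 1) scale with its 95% interval. The intervals of Maff, Nfe2l1, Bach1 and Mafk lie above 0, that of Cul3 lies below 0, and those of Nfe2l2, Keap1 and Mafg cross 0.

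Genes that the pathway acts on or depends on were read from 6 lists, which were drawn up with earlier results of these data known and so are no independent evidence of direction. Of 31 NRF2 targets tested, 30 were higher and none lower in Cardamonin, 29 and none in AEG 3482, and 23 and 3 in Podofilox. Antimycin A had 20 higher and 1 lower, Diphenyleneiodonium Cl 15 and none, and Clofilium tosylate 14 and 1. There, in the same order, 21.8%, 14.0% and 10.9% of all tested genes were higher, and 15.5%, 11.7% and 12.5% lower. In BerberineA 3 were higher and 8 lower, and in Dihydrorotenone 1 and 8, although only 1 member was called in each. Among all tested genes the shares were 12.6% higher and 9.16% lower in BerberineA, and 4.95% and 9.43% in Dihydrorotenone. The Dihydrorotenone count fell from 9 genes to 2 with only the 2 groups in the fit and to 5 without Dihydrorotenone replicate 1. The list's median difference was 2.84 in Cardamonin, 2.43 in AEG 3482 and 0.51 in Podofilox, beside member medians of 0.69, 0.52 and 0.29. Gsta2, a glutathione transferase, had the largest rise, from 0.536 TPM ± 0.334 (SD, n = 6) in DMSO to 188 ± 45.6 (SD, n = 3) in Cardamonin (6.94, adjusted p = 2.39e-18). The largest called fall was that of Osgin1, an oxidative stress response gene, in BerberineA, from 10.1 TPM ± 1.09 (SD, n = 6) to 6.70 ± 0.147 (SD, n = 3), a difference of -0.52 (adjusted p = 2.14e-04).

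Other genes of the leucine zipper families did not follow the small Mafs. Of 7 other cap'n'collar, BACH and large Maf genes, 3 passed the filter. None rose in Cardamonin or AEG 3482, and 2 and 3 of them fell (1 in Cardamonin with the stricter filter of a mean of 5 TPM). Of all tested genes 33.0% and 26.8% were lower in these groups. The large Maf gene Maf fell from 28.5 TPM ± 1.29 (SD, n = 6) to 9.14 ± 1.53 (SD, n = 3) in Cardamonin (-1.55, adjusted p = 8.40e-16).

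Of 10 AP-1 and ATF genes tested, which encode other zipper proteins, 7 were higher and 1 lower in Podofilox, 6 and 1 in AEG 3482, and 5 and 4 in Cardamonin. Of all tested genes 46.2%, 68.1% and 70.3% were called in these groups, with 26.2%, 41.3% and 37.3% higher. The AEG 3482 share called is thus near the background. Atf3, a stress-induced factor, rose from 5.40 TPM ± 1.16 (SD, n = 6) to 44.1 ± 1.55 (SD, n = 3) in Podofilox (2.84, adjusted p = 2.10e-16). Fos fell there from 11.7 TPM ± 4.35 (SD, n = 6) to 4.35 ± 0.820 (SD, n = 3) (-1.19, adjusted p = 8.72e-04).

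Partners in protein turnover were mixed. Of 18 tested genes of the ligase and degradation machinery for NRF2, NRF1 and BACH1, 11 were higher and 2 lower in Cardamonin, 11 and 3 in AEG 3482, and 7 and 5 in Podofilox. Of all tested genes 70.3%, 68.1% and 46.2% were called in these groups, so the Cardamonin share is near the background. Fbxw7, which encodes an F-box substrate receptor, rose in AEG 3482 from 6.35 TPM ± 0.342 (SD, n = 6) to 11.4 ± 0.516 (SD, n = 3) (0.75, adjusted p = 8.52e-11). Trim21, an E3 ligase gene, fell in Cardamonin from 14.0 TPM ± 1.89 (SD, n = 6) to 4.99 ± 0.581 (SD, n = 3) (-1.32, adjusted p = 1.82e-13).

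Of 13 genes whose proteins bind KEAP1, 7 were higher and 2 lower in Cardamonin, 8 and 2 in AEG 3482, and 6 and 1 in Podofilox. Against the same background of 70.3%, 68.1% and 46.2%, the Cardamonin share called is again near that of all genes. Sqstm1, an autophagy receptor that captures KEAP1 and is also in the target list, rose in Cardamonin from 903 TPM ± 72.3 (SD, n = 6) to 3639 ± 164 (SD, n = 3) (2.01, adjusted p = 1.88e-21). Tsc22d4 fell there from 82.6 TPM ± 8.10 (SD, n = 6) to 59.5 ± 4.30 (SD, n = 3) (-0.46, adjusted p = 1.15e-05).

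Genes for the release and processing of NRF1 were mostly higher in the same 3 groups. Of 10 tested, 8 were higher and 2 lower in Cardamonin, 7 and 3 in AEG 3482, and 6 and 1 in Podofilox. Of all tested genes 70.3%, 68.1% and 46.2% were called in these groups, with 37.3%, 41.3% and 26.2% higher. Antimycin A, the group with the next highest Nfe2l1, had 1 higher and 4 lower, against 21.8% of all genes higher and 15.5% lower. Rad23b, a shuttle to the proteasome, rose in Cardamonin from 116 TPM ± 4.74 (SD, n = 6) to 237 ± 9.15 (SD, n = 3) (1.02, adjusted p = 1.43e-13). Hcfc1, a transcriptional cofactor, fell in AEG 3482 from 34.7 TPM ± 2.22 (SD, n = 6) to 20.8 ± 0.439 (SD, n = 3) (-0.71, adjusted p = 1.64e-09).

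**Figure D5:**
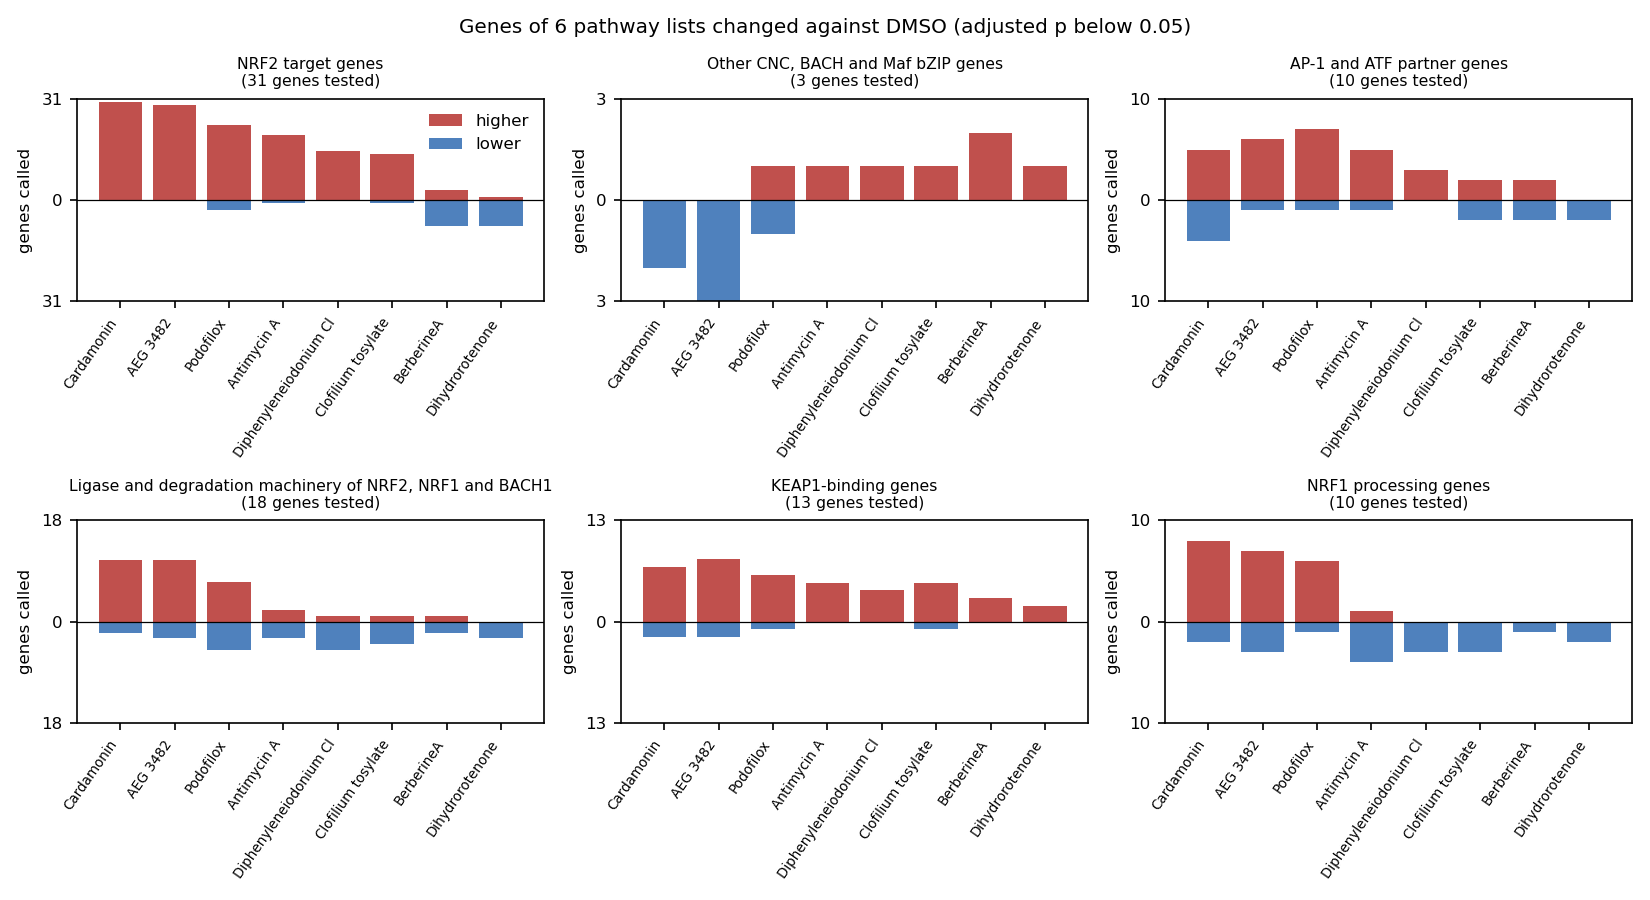
Number of tested genes called higher (bars above 0) and lower (bars below 0) at adjusted p below 0.05 in each of 6 lists, by compound. In the NRF2 target list 30 of 31 genes are higher in Cardamonin and 29 in AEG 3482, where 37.3% and 41.3% of all tested genes are higher.

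Likeness of pattern was described by Pearson's r of log2(TPM + 1) over the 9 group means, which share the same libraries. Among the members, Keap1 and Mafg were most alike (r = 0.988) and Nfe2l1 and Cul3 least (r = 0.322). Maff was closest to Bach1 (r = 0.863), and these 2 members were high in Cardamonin and Podofilox and inside the DMSO range in AEG 3482. Bach1 was nonetheless called higher in AEG 3482 and Maff was not. In Antimycin A the 2 parted, with Bach1 called higher and Maff called lower. Outside the members, 9623 protein-coding genes with a mean of 5 TPM or more were searched. Mafk was nearest to Pfn2 (r = 0.997) and Prdx1 (r = 0.996), and Keap1 was close to Pdcd6ip (r = 0.996). Prdx1, a peroxiredoxin gene, stood at 2169.5 TPM in DMSO, 17015 in Cardamonin, 8626 in AEG 3482 and 3313 in Podofilox, the same order as Mafk. Mafg was nearest to Pla2g6 (r = 0.994) and Rnf41 (r = 0.993), and Maff to Zkscan3 (r = 0.987) and Dnajb9 (r = 0.979). Dnajb9, a chaperone gene of the endoplasmic reticulum, stood at 48.7 TPM in DMSO, 96.1 in Cardamonin, 53.4 in AEG 3482 and 89.4 in Podofilox. Nearest to Nfe2l2 were Abhd2 (r = 0.987) and Ago2 (r = 0.983), to Bach1 Stx3 (r = 0.980) and Cd164 (r = 0.972), to Cul3 Tmem38a (r = 0.987) and Celf1 (r = 0.986), and to Nfe2l1 Wdr73 (r = 0.982) and Sco2 (r = 0.978).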

How the data were processed

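RNA from 30 libraries of 1 mouse fibroblast line was analysed from the TPM table deposited by the authors, which holds 29861 genes. Transcripts were quantified with kallisto 0.43.1 against mm10, per the submitters' processing notes, and summed per gene with tximport, per the series text, which also names DESeq2 for the authors' own tests. No counts were used here, so depth is unknown and precision rests on the spread between libraries alone. The deposited TPM summed to between 927024 and 937134 per library.

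Identifiers were matched to GENCODE M21 of GRCm38, and 29426 of the genes (98.5%) had a symbol. Values were put on the log2(TPM + 1) scale, which understates changes of low genes. Genes needed 1 TPM or more in 3 or more libraries, which left 13644. These were fitted by limma 3.58.1 (R 4.3.3), using all libraries together, a separate mean for each group, an intensity trend and no covariate. Tests were two-sided, with Benjamini-Hochberg adjustment over tested genes within each contrast and a threshold of 0.05. The script was tested on simulated data.

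The members, gene lists, markers and tests were chosen with earlier results of these data known. Named outside the members are, per list, the genes with the largest called rise and fall over the compounds (5 TPM or more on average in the higher group, no treated library within the DMSO range), and per member the 2 most similar genes. Some genes that this rule picks are not reported here. Neighbouring groups in the order of levels were compared in 64 pairs, chosen by the order of the same values. Alternatives were a pseudocount of 0.1, no filter, a mean of at least 5 TPM, median-ratio scaling, quantile normalization, removal of the 20 most abundant genes, only the 2 groups compared, no intensity trend, a replicate block and leaving out each library. With the block, DMSO replicates 4, 5 and 6 do not enter the comparisons with DMSO, since no compound has those numbers. Promoter sequences are from RefSeq, build GRCm38.p6.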

Additional observations from a re-analysis of the deposited data

How the results depend on the processing

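Of 34 calls of a member against DMSO, 26 held in every setting, and no difference past the threshold changed sign. Of 30 differences not called, 24 stayed so, and the other 6 passed in at least 1 setting: Maff in AEG 3482 and BerberineA, Bach1 in Diphenyleneiodonium Cl and BerberineA, Nfe2l2 in Antimycin A and Mafg in Clofilium tosylate. The 15 calls in Cardamonin and Podofilox were among the 26, as were Nfe2l2, Keap1, Mafg, Mafk and Cul3 in AEG 3482. Between compounds, 13 of 17 calls held in every setting. Dihydrorotenone had 1 member called and 0 with only the 2 groups compared, and 0 to 1 when each library was left out. BerberineA had 1 called, 2 under median-ratio scaling, quantile normalization or removal of the 20 most abundant genes, 0 with only the 2 groups compared, and 0 to 3 with a library left out. The cause was not tested, beyond the fewer samples in those fits. Of 864 list counts, 820 stayed within 1.5 times the main count, and those that did not were nearly all in groups with few calls. All-gene medians moved by less than 0.1 under each scaling, most in AEG 3482, from 0.10 to 0.00 under median-ratio scaling. Replicate numbers gave little sign of pairing the libraries. Over 108 same-numbered pairs the correlation of deviations ran from -0.11 to 0.15, and 4 pairs exceeded 0.1. The median was 0.007 for same-numbered pairs and -0.0009 for pairs of other numbers. Closest to their own number were 12 of 27 libraries. With 3 libraries a group this check is weak and cannot show that pairing is absent. With the replicate block, members called numbered 8 in Cardamonin, 7 in AEG 3482 and in Podofilox, 4 in Antimycin A, 3 for Clofilium tosylate and for Diphenyleneiodonium Cl, and 1 for Dihydrorotenone and for BerberineA, and 5 differed between Cardamonin and AEG 3482. The genes behind these counts differed in 2 groups. With the block, Maff in Diphenyleneiodonium Cl (adjusted p = 0.138) and Nfe2l1 in BerberineA (0.0781) were not called, and Bach1 passed in both (0.0269 and 0.0369). Replicate numbers 4, 5 and 6 occur only in DMSO, so in this fit only DMSO replicates 1, 2 and 3 serve as controls. The effect of the block on these calls cannot be told apart from that of the lost controls. No counts were available to set a detection limit, so small differences rest on 3 libraries a group.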
